A study of Homo sapiens with 6 samples.

Results

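The genes described here are the long noncoding RNA (lncRNA) genes that host small nucleolar RNAs (snoRNAs): every gene that the GENCODE annotation on GRCh37 classes as lncRNA and names SNHG with a number, together with GAS5. The rule found 29 genes among 18702 lncRNA genes, and it used names only and no measured value. A snoRNA host gene is spliced like a coding gene, but its product lies in the introns. Box C/D snoRNAs guide 2′-O-methylation and H/ACA snoRNAs guide pseudouridylation of ribosomal RNA, while small Cajal body RNAs (scaRNAs) act on spliceosomal RNA. Several hosts belong to the terminal oligopyrimidine class, whose transcripts start with a C inside a run of C and T, as those of ribosomal protein genes do, and the spliced host RNA is often destroyed by nonsense-mediated decay. In the RefSeq annotation, 27 of the 29 genes span at least 1 snoRNA or scaRNA, whereas SNHG27 and SNHG28 span none.

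To map the protease MMP-2 on chromatin, native ChIP-Seq was performed in U2OS, a human osteosarcoma cell line, with micrococcal nuclease and no crosslinking. In ProMMP2-3xHA cells, a stable line made with a lentiviral vector, pro-MMP-2 carrying a 3xHA tag at its C terminus is expressed constitutively beside the untagged MMP-2 of the cells, whereas wild type (WT) cells carry no tag. HA was immunoprecipitated in 3 replicates of ProMMP2-3xHA cells, described as independent experiments, and H3K4me3, a histone mark of active promoters, in 1 library of ProMMP2-3xHA and 1 of WT cells. All cells had been grown to 2 days past confluence and no separate list of the WT HA library was used here. Whether the stable line is 1 clone is not given in the sources used here. Peaks were taken as the authors called them, in a list for each HA replicate, a merged HA list of 7216 regions and 1 list for each H3K4me3 library. In the replicates, the HA libraries covered a base on average 4.74, 4.34 and 4.23 times, and a median of 49, 44 and 41 fragments lay at a summit. Replicate 1 held 6401 peaks against 9193 and 8933 in replicates 2 and 3. Of the markers of mesenchymal cells and osteoblasts, 4 of 7 carried H3K4me3 in both lists and ALPL, COL1A2 and TWIST1 carried none. In both lists, H3K4me3 lay at 1 of 4 epithelial markers (EPCAM) and at none of 3 liver markers. A merged HA peak lay at 2 of the 7 mesenchymal markers, without ALPL, COL1A2, RUNX2, SPARC and TWIST1, and at 1 of the 4 epithelial markers, without CDH1, ESRP1 and GRHL2. None lay at the liver markers ALB, APOA1 and HNF4A.

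HA was present at most snoRNA host lncRNA genes. Within 1 kb of the 5′ end, 20 of the 29 genes held a merged HA peak (69.0%), against 10.6% of all lncRNA genes and 28.2% of protein coding genes. The genes were SNHG1, SNHG3, SNHG5 to SNHG9, SNHG11, SNHG12, SNHG15, SNHG16, SNHG19, SNHG22, SNHG25, SNHG26, SNHG28, SNHG29, SNHG30, SNHG32 and GAS5. In the replicates, 18, 22 and 21 of the 29 genes held a peak, a mean of 70.1% ± 7.18 (SD, n = 3). The same share was 7.66%, 10.9% and 10.4% of lncRNA genes and 20.3%, 28.0% and 28.6% of protein coding genes. A peak in every replicate was found at 18 of the 29 genes, against 6.01% of lncRNA genes and 16.1% of protein coding genes. SNHG28 and SNHG29 were the 2 genes with a merged peak that lacked a peak in a replicate, in both cases replicate 1, the list with the fewest peaks. No test was run over the genes, and these shares describe the lists.

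H3K4me3 lay within 1 kb of the 5′ end of 26 of the 29 genes in the ProMMP2-3xHA list and of the same 26 in the WT list. The corresponding shares were 21.0% and 23.2% of lncRNA genes and 57.0% and 60.9% of protein coding genes. SNHG14, SNHG20 and SNHG27 were without the mark in both lists. Because the 2 classes differ in how often they carry the mark, the HA shares were set side by side among genes with H3K4me3 in both lists. HA was then held by 20 of 26 snoRNA host genes (76.9%), against 48.6% of lncRNA genes and 49.0% of protein coding genes. In the replicates, the share among the 26 genes was 78.2% ± 8.01 (SD, n = 3), compared with 43.5% ± 7.55 of the other lncRNA genes and 44.4% ± 7.98 of protein coding genes. No host gene held a merged HA peak without H3K4me3 in both lists. Transcript levels were not analysed here, and the part of transcription in the shares was not tested.

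**Figure D1:**
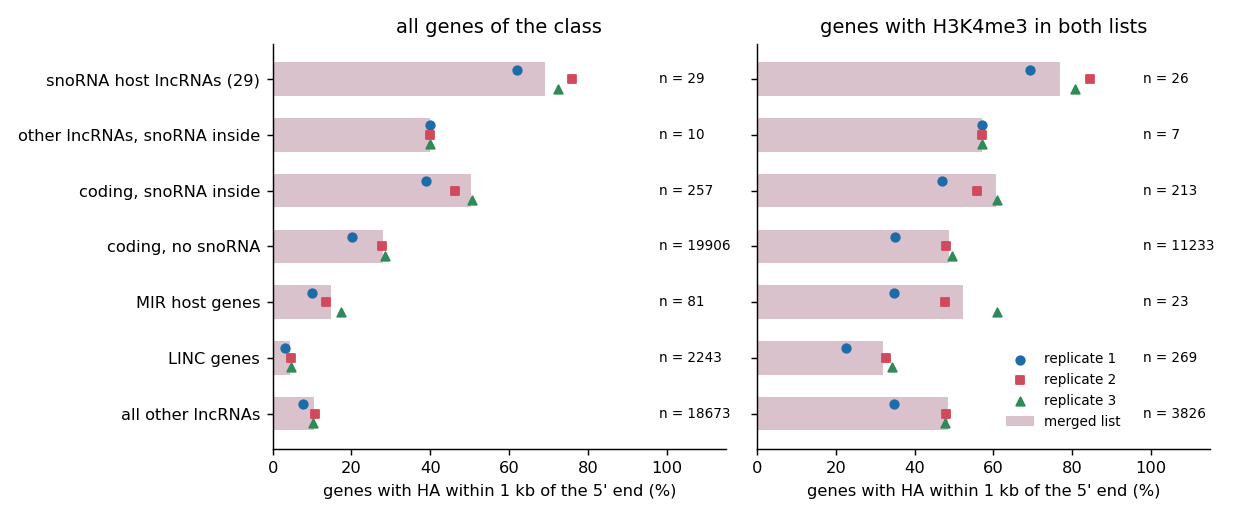
Share of genes with HA within 1 kb of the 5′ end (%, horizontal axis) by class of gene (vertical axis), over all genes of a class on the left and over genes with H3K4me3 in both lists on the right. Bars give the merged list and points the 3 replicates, and n is the number of genes. Host lncRNA genes lie above every other class shown in both panels, at 69.0% and 76.9% in the merged list.

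Other classes of gene were scored in the same way. Whether a gene spans a snoRNA was judged by position alone, without a check of strand or introns. Protein coding genes that span a snoRNA in RefSeq held a merged HA peak at 129 of 257 (50.2%), against 28.0% of protein coding genes that span none. Among those with H3K4me3 in both lists, the shares were 60.6% and 48.8%. Of 10 other lncRNA genes that span a snoRNA, 4 held HA in the merged list and in all 3 replicates: DANCR, ZFAS1, THAP9-AS1 and STARD7-AS1. The other 6 included MEG8, which spans 41 snoRNAs and carried no H3K4me3. Host genes of microRNAs named as such held HA at 12 of 81 (14.8%), and at 12 of the 23 with H3K4me3 in both lists. Intergenic lncRNA genes named LINC held HA at 98 of 2243 (4.37%).

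Among the 29 genes, the kind of small RNA that a gene spans was compared with the presence of HA. Of the 12 genes that span box C/D snoRNAs only, 10 held a merged HA peak, the exceptions being SNHG14 and SNHG18. Of the 9 that span H/ACA snoRNAs only, 6 held one and SNHG4, SNHG17 and SNHG31 did not. GAS5 and SNHG12, which span both kinds, held HA. Of the 4 scaRNA hosts, SNHG22 held HA within 1 kb of the 5′ end and SNHG10, SNHG20 and SNHG21 did not, although SNHG10 and SNHG21 carried H3K4me3. SNHG20 did hold a merged HA peak near another annotated transcript start. The strongest summits of SNHG22 and of the H/ACA host SNHG9 lay inside a coding neighbour. These groups are small and their difference was not tested.

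At several host genes, the strongest HA summit lay far from the 5′-most annotated base but close to the start that transcripts share most often. This commonest start, a measure added after the data were seen, was the base at which the largest number of a gene's annotated transcripts begin. At 10 of the 29 genes, 6 with a merged HA peak and 4 without, no annotated transcripts share a start, and the outermost 5′ end was kept. These were SNHG3, SNHG9, SNHG18, SNHG19, SNHG21, SNHG22, SNHG25, SNHG27, SNHG30 and SNHG31. At GAS5, 50 of 91 annotated transcripts begin 893 bp inside the gene's 5′ end, and at SNHG12 the commonest start lies 1259 bp inside it. From the gene's 5′ end, the strongest HA summits of SNHG12 lay at 1394, 1361 and 1417 bp in replicates 1, 2 and 3, but only 135, 102 and 158 bp after the commonest start. The summits of SNHG6 lay 974, 981 and 975 bp from the 5′ end and 117, 124 and 118 bp after the commonest start. Over the 18 genes with a peak in every replicate, the median summit lay 96.2 bp ± 16.0 (SD, n = 3) after the commonest start. From the gene's 5′ end the median was 156 bp ± 3.79 (SD, n = 3), with single genes between -430 and 1417 bp. Within 300 bp downstream of the commonest start lay 11, 13 and 13 of the 18 summits in replicates 1, 2 and 3. Upstream of it in all 3 replicates were the summits of SNHG9, SNHG15, SNHG22, SNHG30 and SNHG32. At protein coding genes with a peak in every replicate, the median summit lay 121.0 bp ± 4.58 (SD, n = 3) from the gene's 5′ end. In replicates 1, 2 and 3, 63.3%, 64.2% and 64.8% of these coding summits lay downstream of that end. At host genes 14, 15 and 14 of the 18 did. Summit distances from the commonest start were not computed for other genes, so the host values from it have no comparison. By the annotation, 10, 10 and 9 of the 18 strongest summits fell in an exon of the host gene and 4, 5 and 5 in an intron.

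**Figure D2:**
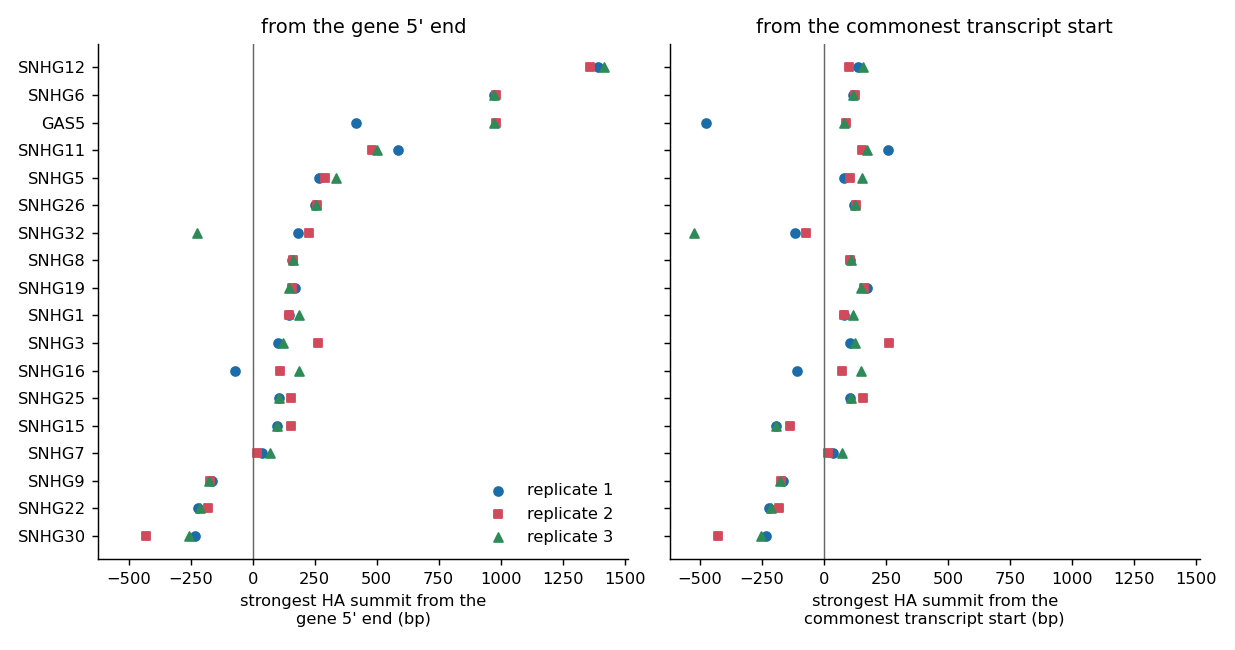
Distance of the strongest HA summit (bp, horizontal axes) from the gene's 5′ end (left) and from the commonest transcript start (right) for the 18 genes with a peak in every replicate (vertical axis). Each point is 1 replicate. SNHG12, SNHG6 and GAS5 lie near 1000 bp or beyond on the left in at least 2 replicates and at 82 to 158 bp there on the right.

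The letters at the commonest start were read from the GRCh37 genome, because a terminal pyrimidine run is known from several of these genes. The start lay inside an unbroken run of at least 5 C or T bases on the gene's strand at 9 of the 29 genes, against 9.98% of all lncRNA and protein coding genes. All 9 held a merged HA peak within 1 kb of the 5′ end: GAS5, SNHG1, SNHG6, SNHG7, SNHG8, SNHG12, SNHG25, SNHG26 and SNHG29. They were 9 of the 20 genes with such a peak (45.0%). None of the 9 genes without a merged peak there had such a start. Of these, however, SNHG20 held merged HA near its commonest start, and SNHG18, SNHG21, SNHG27 and SNHG31 have no shared start. SNHG25 has no shared start either. The split was noticed in the data, carries no test and did not hold at the gene's outermost 5′ end. There, 4 of the 29 genes started in such a run (13.8%, against 10.4% of all genes), SNHG7, SNHG8 and SNHG25 with HA and SNHG4 without a merged peak. Below are 30 bases on either side of the start, 5′ to 3′ on the gene's strand, with the start as base 31 and the pyrimidine run that holds it in capitals.
GAS5, chr1:173837098-173837157, minus strand: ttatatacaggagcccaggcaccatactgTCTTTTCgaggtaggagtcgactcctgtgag
SNHG1, chr11:62623328-62623387, minus strand: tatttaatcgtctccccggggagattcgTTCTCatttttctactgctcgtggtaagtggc
SNHG7, chr9:139622607-139622666, minus strand: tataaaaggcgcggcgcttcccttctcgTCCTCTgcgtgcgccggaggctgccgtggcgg
SNHG8, chr4:119199883-119199942, plus strand: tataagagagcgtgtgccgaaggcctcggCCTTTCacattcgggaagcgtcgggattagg
SNHG12, chr1:28908356-28908415, minus strand: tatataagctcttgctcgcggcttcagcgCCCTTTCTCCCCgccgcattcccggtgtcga
SNHG25, chr17:62223267-62223326, plus strand: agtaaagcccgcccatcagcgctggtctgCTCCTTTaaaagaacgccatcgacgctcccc
SNHG26, chr7:22893845-22893904, plus strand: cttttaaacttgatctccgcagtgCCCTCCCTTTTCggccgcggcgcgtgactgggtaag
SNHG29, chr17:16342321-16342380, plus strand: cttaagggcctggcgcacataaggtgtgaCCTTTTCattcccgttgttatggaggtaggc
The capitals stand at the middle of each line, and in all but SNHG25 the start base itself is a C.

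For contrast, the same window is shown for 3 of the 6 genes that carried H3K4me3 in both lists and no merged HA peak, with the start base in capitals. They are examples only. SNHG4, which is not shown, also has a C at its commonest start. At SNHG18 and SNHG31 no start is shared, so the outermost 5′ end is shown. Genes with HA and no pyrimidine run at the start are not shown either.
SNHG10, chr14:96000950-96001009, minus strand: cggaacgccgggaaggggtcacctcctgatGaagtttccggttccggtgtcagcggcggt
SNHG18, chr5:9546252-9546311, plus strand: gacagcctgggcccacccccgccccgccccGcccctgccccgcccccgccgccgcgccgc
SNHG31, chr2:215674875-215674934, plus strand: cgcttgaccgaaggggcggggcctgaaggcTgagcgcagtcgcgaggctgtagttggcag
In the windows of 250 bases before to 50 after the gene's 5′ end, 4 motifs were searched on both strands. The E-box CACGTG stood in 5 of the 29 windows (17.2%), against 6.94% of all lncRNA and protein coding genes, and all 5 genes held HA. The TATA box TATAAA stood in 4 (13.8%, against 13.3%), and CCAAT in 11 (37.9%, against 35.6%). GGGCGG, the core of the GC box, stood in 19 (65.5%, against 37.9%). Taken apart, the 2 classes held GGGCGG in 52.2% of protein coding and 22.6% of lncRNA windows. The median GC content was 59.7%, close to the 60.3% of protein coding genes and above the 48.7% of lncRNA genes. Around the commonest start, CACGTG stood in 7 of 29 windows. Of these, 5 belonged to genes with a merged HA peak near the gene's 5′ end and 2 to genes without, SNHG4 and SNHG20. SNHG20 did hold a merged HA peak within 1 kb of its commonest start. A match is a string of letters only and says nothing of whether a factor bound there.

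The strength of HA was read as fold enrichment, the authors' ratio of HA at a summit to the local background of the control. For this ratio the fragments are scaled down to the depth of the control, and 1 is added to both sides. The counts of fragments given here are not scaled, so dividing them by the background does not give the fold enrichment. By the names of the lists the control was an HA control, taken here to be the HA immunoprecipitation of WT cells. In each replicate, the highest value was taken over the peaks with any base within 1 kb of the 5′ end. At SNHG12 alone, the summits taken this way lay beyond 1 kb. The summits of SNHG12 within 1 kb had 6.83 and 6.64 in replicates 2 and 3, and none lay there in replicate 1. SNHG8, which hosts the H/ACA snoRNA SNORA24, had 9.01, 15.1 and 11.2 (mean 11.8 ± 3.08, SD, n = 3) in replicates 1, 2 and 3. Its summits lay within 2 bp of each other, on 157, 209 and 165 fragments, in an exon of the gene. These were the most enriched summits of any of the 29 genes in replicates 2 and 3, and 99.1% and 98.4% of peaks near protein coding 5′ ends in those lists lay below them. The bases around the summits, over about the length of a nucleosome, are given with the bases from the first to the last summit in capitals.
SNHG8, chr4:119199946-119200092, plus strand: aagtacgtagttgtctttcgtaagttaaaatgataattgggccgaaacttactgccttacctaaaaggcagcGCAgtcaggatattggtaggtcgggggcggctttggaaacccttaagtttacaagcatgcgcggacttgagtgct

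SNHG9, a host of SNORA78 head to head with a ribosomal protein gene, had a fold enrichment of 10.6, 12.7 and 10.2 (mean 11.2 ± 1.34). SNHG1, which spans 8 box C/D snoRNAs, had 10.6, 10.4 and 10.5 (mean 10.5 ± 0.106), the smallest spread among replicates of the 18 genes. SNHG25, the host of SNORD104, had 8.56, 10.9 and 10.8 (mean 10.1 ± 1.31). The means of SNHG8, SNHG9, SNHG1 and SNHG25 differed by less than the SD of SNHG8, so their order is not resolved. SNHG12, which spans 4 snoRNAs of both kinds, had 6.94, 9.51 and 10.9 (mean 9.12 ± 2.00). SNHG6, the host of SNORD87, had 5.61, 9.20 and 11.1 (mean 8.64 ± 2.79). In both genes replicate 1 was the lowest.

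GAS5, named for its RNA in growth-arrested cells, spans 11 snoRNAs in RefSeq and had 7.66, 8.43 and 5.28 (mean 7.12 ± 1.64). SNHG7, with a pair of SNORA17 copies, had 5.31, 8.13 and 7.17 (mean 6.87 ± 1.44). SNHG15, with SNORA9, had 5.1, 7.32 and 6.90 (mean 6.44 ± 1.18). These genes formed a middle range in which neighbours could not be told apart by their replicates. SNHG26, with SNORD93, had 3.41, 7.20 and 8.50 (mean 6.37 ± 2.65). SNHG3, which hosts the pair SNORA73A and SNORA73B, had 5.12, 6.07 and 7.71 (mean 6.30 ± 1.31). SNHG22, the only scaRNA host with a merged HA peak near the gene's 5′ end, had 6.21, 5.85 and 6.64 (mean 6.23 ± 0.397). Among these 3 genes SNHG26 varied most, and its value in replicate 1 was the lowest of any of the 18 genes in that list.

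SNHG32, with SNORD48 and SNORD52, had 6.79, 8.33 and 3.53 (mean 6.22 ± 2.45). SNHG16, with SNORD1A, SNORD1B and SNORD1C, had 4.18, 6.39 and 7.89 (mean 6.15 ± 1.87). SNHG11, with SNORA60 and SNORA71E, had 5.85, 7.25 and 4.84 (mean 5.98 ± 1.21). No replicate was the lowest at all 3 genes. SNHG5, with SNORD50A and SNORD50B, had 3.90, 6.13 and 7.44 (mean 5.82 ± 1.79). SNHG30, with SNORD7, had 5.33, 5.71 and 5.67 (mean 5.57 ± 0.207). SNHG19, with SNORD60, had 4.36, 5.28 and 5.50 (mean 5.05 ± 0.605). SNHG19 had the lowest mean of the 18 genes, and its control background was among the highest, at 11.0, 12.0 and 7 fragments per base.

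The 2 genes with a merged peak that were absent from replicate 1 had values in the other lists only. SNHG28, which spans no snoRNA in RefSeq, had 7.65 and 4.48 in replicates 2 and 3. SNHG29, with SNORD49A, SNORD49B and SNORD65, had 5.20 and 6.22. Over the 18 genes, the median fold enrichment in replicates 1, 2 and 3 was 5.73, 7.73 and 7.58 (mean 7.01 ± 1.11, SD, n = 3). The same median was 5.81 ± 0.753 over protein coding genes and 6.01 ± 0.851 over the other lncRNA genes with a peak in every replicate. In each replicate the median of the host genes was the highest of the 3 classes. Replicate 1 was the lowest of the 3 at 12 of the 18 genes, and it was the highest at 1. A median of 82.0, 96.5 and 104 fragments lay at these summits. Over all summits of each list, with weaker summits of the same peak included, the median was 49, 44 and 41. The host medians use only the strongest summit of a gene, and only genes that all 3 lists hold. That choice can itself give higher counts, so these medians do not compare host genes with other genes. The counts of fragments were recovered from the authors' ratios and p-values and cover neither duplicates nor mapping.

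**Figure D3:**
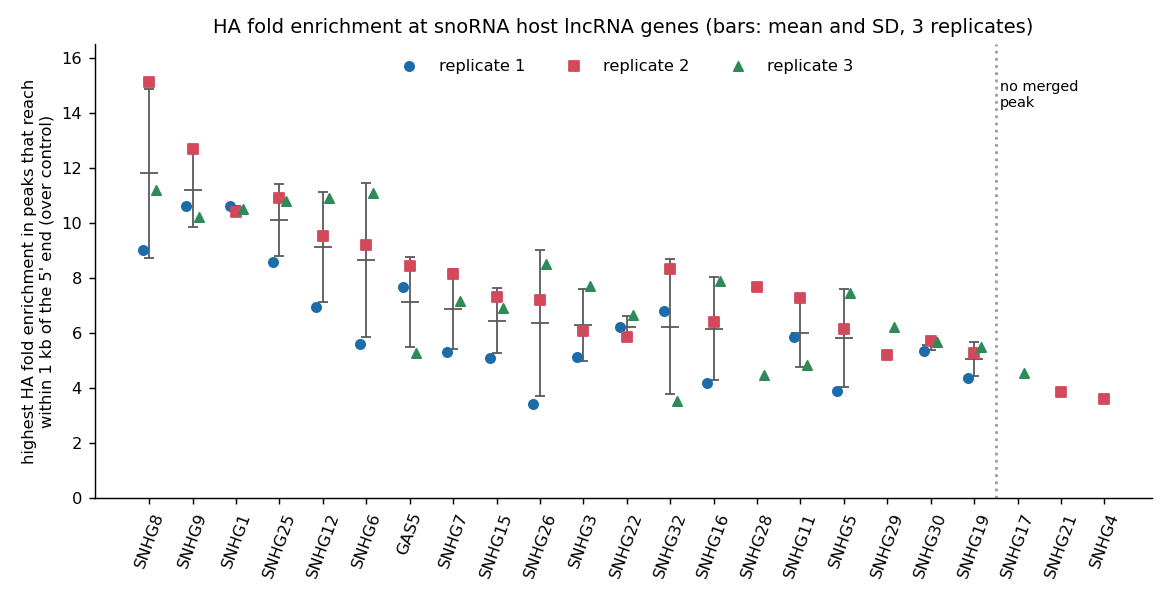
Highest HA fold enrichment in peaks with any base within 1 kb of the 5′ end (linear ratio, vertical axis) for each host gene with a peak in any replicate (horizontal axis). Points are replicates, and bars give mean and SD where all 3 replicates held a peak. SNHG8, SNHG9, SNHG1 and SNHG25 have means above 10, and SNHG17, SNHG21 and SNHG4, right of the dotted line, have 1 replicate each.

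To ask whether HA at host genes sat at a coding promoter beside them, neighbours were examined. A protein coding gene on the other strand had its 5′ end within 1 kb of 7 of the 29 genes, against 13.0% of lncRNA genes and 13.3% of protein coding genes. HA was held by 5 of these 7 genes and by 15 of the 22 without such a neighbour, 71.4% and 68.2%. Among the other lncRNA genes the shares were 45.7% with such a neighbour and 5.24% without, and 56.1% and 40.4% where both H3K4me3 lists held a region. Of the 20 host genes with HA, 15 thus had no divergent coding neighbour, close to the 22 of all 29 genes without one. Among these 15, SNHG3 and SNHG5 have a coding 5′ end within 1 kb on the same strand. At SNHG1, the head to head neighbour is SLC3A2, the heavy chain of amino acid transporters, 51 bp upstream. The strongest summits lay 79, 80 and 118 bp after the commonest SNHG1 start, on its own side in every replicate. A weaker summit lay past the SLC3A2 start in every replicate, at -316, -324 and -283 bp from the SNHG1 5′ end. Its fold enrichment was 3.98, 3.63 and 5.79. At SNHG19, 293 bp from the ubiquitin ligase gene TRAF7, the summits lay inside the host gene, 464, 453 and 440 bp from the TRAF7 start.

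At another pair of genes the strongest summit lay on the coding side. SNHG9 faces RPS2, a ribosomal protein gene that starts 54 bp upstream, and the summits lay 112, 120 and 123 bp inside RPS2. A second, weaker summit lay inside SNHG9 at 236 and 213 bp in replicates 2 and 3, with a fold enrichment of 4.84 and 4.77. SNHG22 faces ACAA2, a mitochondrial thiolase gene 12 bp upstream, and the summits lay 209, 169 and 202 bp inside ACAA2. Weaker summits inside SNHG22 lay at 243 bp in replicate 2 and at 160 bp in replicate 3, with a fold enrichment of 4.01 and 4.07. In each replicate, the strongest summit scored for SNHG9 and SNHG22 thus lay over the neighbour, and in replicate 1 no other summit was called. The head to head neighbours without HA were BARD1, the partner of BRCA1, 498 bp from SNHG31, and SEMA5A, a semaphorin gene, 95 bp from SNHG18.

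GAS5 was the remaining gene with a neighbour on the other strand. ZBTB37, a zinc finger gene, starts 93 bp upstream of the commonest GAS5 start, although the longest GAS5 transcripts overlap it. A pair of summits was called in every replicate, 1 on each side. The GAS5 side lay 80, 89 and 82 bp after the GAS5 start with 5.13, 8.43 and 5.28 fold enrichment on 216, 305 and 203 fragments. The ZBTB37 side lay 478, 528 and 494 bp before it with 7.66, 6.92 and 4.70 on 93, 74 and 49 fragments. More fragments lay on the GAS5 side in every replicate, but the control background there was also higher, at 11.0, 12.0 and 12.0 fragments per base against 2.54, 2.95 and 2.69. The side with the higher ratio was therefore ZBTB37 in replicate 1 and GAS5 in replicates 2 and 3. What raised the control background was not tested.

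On the same strand, SNHG3 starts 37 bp after RCC1, the exchange factor of the GTPase Ran, and a summit here cannot be given to either gene. SNHG5 shares its start region with a coding gene known by the identifier ENSG00000271793, and SNHG4 starts 350 bp after MATR3, a nuclear matrix protein gene. The single SNHG4 peak, in replicate 2, lay 94 bp inside MATR3.

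HA covered long stretches at 6 host genes. Of the 20 merged regions, 6 were wider than 2 kb (30%), against 7.04% of merged regions near protein coding 5′ ends. The widest, 13248 bp, ran from SNHG3 along RCC1. The others were 7171 bp at SNHG19 and over the nearby RAB26, 5823 bp from SNHG9 over RPS2 towards NDUFB10, 5340 bp over all of SNHG1, 4813 bp at SNHG12 and 3184 bp from SNHG25 into TEX2. The other 14 regions were narrower, and the median over the 20 was 748 bp, against 483 bp near protein coding 5′ ends. The merged list joins calls that lie close together, so the replicates were examined for what lay under these regions. At SNHG25, peaks of replicates 1, 2 and 3 lay under 46.7%, 73.7% and 94.8% of the region. At SNHG3 they lay under 20.2%, 61.3% and 76.4%, and at SNHG9 under 20.8%, 43.6% and 38.7%. At SNHG1 the peaks lay under 24.2%, 30.4% and 31.0%, and at SNHG12 under 12.4%, 17.5% and 38.2%. At SNHG19 they lay under 16.8%, 60.6% and 25.2%. Replicate 1 covered the least of all 6 regions, and SNHG25 was the most covered in each replicate.

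Host genes of at most 5 kb with a merged peak had a median of 90.8% of their length under merged HA (n = 8), against 18.4% for other lncRNA genes and 13.5% for protein coding genes of that length range with a merged peak. Under the peaks of replicates 1, 2 and 3, the median over the same 8 genes was only 13.2%, 30.9% and 37.1%, against 0%, 19.0% and 11.3% for the other lncRNA genes and 6.57%, 15% and 9.54% for protein coding genes. SNHG25, which is 540 bp long, lay under a peak over its whole length in every replicate. SNHG1, SNHG3 and SNHG19 were wholly covered in the merged list, but in the replicates SNHG1 was covered over 10.6%, 12.0% and 16.3% of its length. For host genes of 5 to 20 kb the median was 10.0% (n = 7), against 2.70% and 2.72%. Above 20 kb it was 1.27% (n = 5), against 0.429% and 0.481%. Under the peaks of replicates 1, 2 and 3, the median over these 5 genes was 0%, 0.976% and 0.792%. It was 0.116%, 0.473% and 0.329% for other lncRNA genes and 0.135%, 0.562% and 0.412% for protein coding genes. In replicate 1 the host genes above 20 kb were thus below both classes. Within a range the host genes may be shorter than the rest, which was not adjusted for.

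H3K4me3 regions at host genes were broad. In ProMMP2-3xHA cells the median width at the 26 marked genes was 2448 bp, against 1444 bp at protein coding and 1490 bp at lncRNA genes marked in both lists. In WT cells the medians were 3287, 1886 and 1930 bp. Among marked genes with a merged HA peak, the ProMMP2-3xHA medians were 2389 bp at host, 1687 bp at protein coding and 1757 bp at lncRNA genes. The WT medians of these genes were 3308, 2113 and 2155 bp. Every one of the 26 genes had a narrower region in ProMMP2-3xHA than in WT cells, with a median ratio of 0.815 and a range from 0.519 at SNHG29 to 0.958 at SNHG31. This was near the rest of the genome, where 93.2% of protein coding and 91.5% of lncRNA genes were narrower, with median ratios of 0.783 and 0.792. With 1 library per cell line, the difference has no replicate check, and cell line and library cannot be told apart. The ratio was 0.780 for the 20 genes with HA and 0.849 for the 6 without, over overlapping ranges of 0.519 to 0.950 and 0.625 to 0.958.

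**Figure D4:**
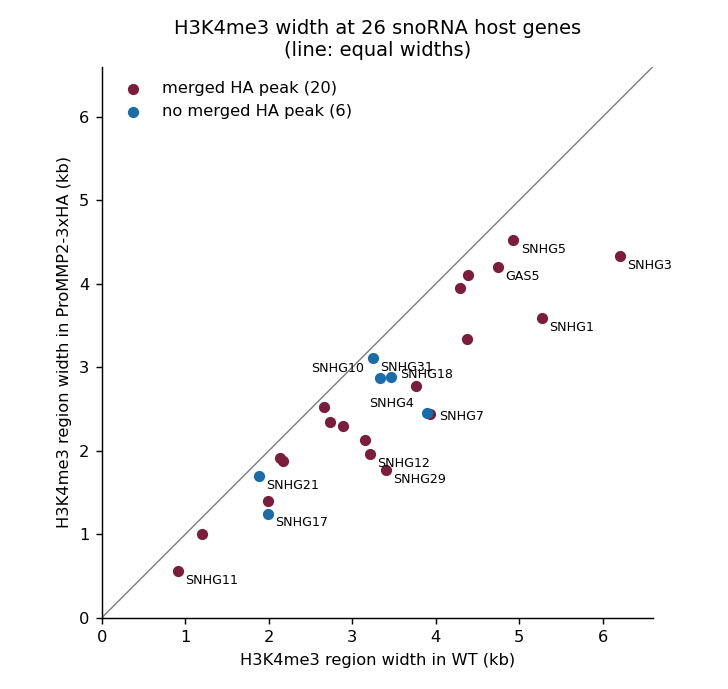
Width of the H3K4me3 region at the 26 marked host genes in WT cells (kb, horizontal axis) and in ProMMP2-3xHA cells (kb, vertical axis). Each point is a gene, coloured by a merged HA peak within 1 kb, and the line marks equal widths. All 26 points lie under the line, and the 6 genes without HA lie among the other 20.

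The 9 genes without a merged HA peak fell into 2 groups. SNHG4, SNHG10, SNHG17, SNHG18, SNHG21 and SNHG31 carried H3K4me3 in both lists, over a median of 2666 bp in ProMMP2-3xHA cells, compared with 2389 bp at the 20 genes with HA. In WT cells the medians were 3287 bp at these 6 genes and 3308 bp at the 20 genes with HA. SNHG4 and SNHG21 held a peak in replicate 2 only, with a fold enrichment of 3.61 and 3.84. SNHG17, which spans 4 SNORA71 copies, held one in replicate 3 only, with 4.54. These 3 values are at the low end of the host genes, and SNHG10, SNHG18 and SNHG31 held no peak in any replicate. The lists hold called peaks only, so the level of HA below the call cannot be given.

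SNHG14, SNHG20 and SNHG27 carried neither HA nor H3K4me3 at the 5′ end. SNHG14 is the 441754 bp host of 83 snoRNAs in RefSeq on chromosome 15, expressed from the paternal copy in neurons. SNHG27 spans 63906 bp and no snoRNA. SNHG20 differed from both, since its commonest transcript start lies 2033 bp inside the gene, where a merged HA peak, a peak of replicate 3 and H3K4me3 in both lists lay within 1 kb.

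Genes for the proteins that act on snoRNAs were scored in the same lists. Of the 4 box C/D core proteins, which include the methyltransferase fibrillarin, 3 held a merged HA peak and SNU13 did not. Of the 4 H/ACA core proteins, DKC1, GAR1, NHP2 and NOP10, none held one, although all 4 carried H3K4me3 in both lists. In replicates 1, 2 and 3, however, 0, 2 and 2 of these H/ACA genes held a peak, and 2, 3 and 3 of the box C/D genes did. Assembly factors held HA at 4 of 12 and factors of nonsense-mediated decay at 6 of 10, with SMG1, UPF1, UPF2 and UPF3B lacking it. Of 5 factors that release or trim snoRNAs from introns, 3 held HA and the debranching enzyme gene DBR1 and AQR did not. Of the genes in these lists, SHQ1, an assembly factor, was the only one without H3K4me3 in both lists. Among genes with the mark, the share with HA was 36.4% of the assembly factors and 49.0% of protein coding genes, and no difference between the lists was tested.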

How the data were processed

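Native ChIP-Seq peak lists of 5 of 6 samples were used, with 1 list of the merged HA replicates. Per the study's methods and the submitters' processing notes, the authors trimmed reads (Trim Galore 0.6.0), aligned pairs to GRCh37 (hg19; Bowtie2 2.3.5.1), kept a mapping quality of 30 (SAMtools 1.9), removed duplicates (Picard) and called peaks with MACS2 3.0.0a6 at a q-value of 0.05 and a minimum length of 147 bp against a control immunoprecipitation or input. The names of the HA replicate lists give an HA control, taken here to be that of WT cells. Each line of the deposited replicate lists gives positions, a score, a fold enrichment (a ratio), and the p-value and q-value on a −log10 scale. The merged HA and H3K4me3 lists deposited by the authors hold positions only, from joined narrow and broad calls.

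Genes came from GENCODE 44 lifted to GRCh37, and the 5′ end was the gene's outermost base. A peak counted when any base lay within 1 kb, a search that bedtools 2.31.1 matched with 0 differences. Python 3.11.15, numpy 2.4.6, pandas 2.3.3 and scipy 1.17.1 were used. Of several summits the highest fold enrichment was taken, wherever it lay in the peak. Fragments at summits were recovered from the fold enrichment and p-value for 99.1%, 99.3% and 98.3% of summits, after a test on simulated data. The HA library had 3.57, 2.81 and 3.00 times the control's depth. For H3K4me3, the lists give no counts and so no depth. snoRNA content was read from RefSeq (GRCh38.p14) by which genes lie inside which, without coordinates and without a check of strand or introns.

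The genes and lists were chosen with earlier results of these data known, and comparisons are descriptions over the lists with no test across genes. Every gene was named, with its values in each replicate where it held a merged HA peak, and genes of a list without HA were named where they were 5 or fewer. One other marker list is not reported here. Alternatives were other windows, other definitions of the start, stricter q-values, wider H3K4me3 regions and leaving out each replicate.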

Additional observations from a re-analysis of the deposited data

How the results depend on the processing

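The counts of host genes with HA depended mainly on whether a peak had to overlap the annotated 5′ end itself. Then 13 in place of 20 genes held a merged peak, 5 in place of 18 held a peak in every replicate, and 9, 15 and 7 in place of 18, 22 and 21 held one in replicates 1, 2 and 3. By that overlap 5.14% of lncRNA and 13.9% of protein coding genes held a merged peak. Under windows of 500 bp and 2 kb, the start of any, the canonical or the commonest transcript, and merged peaks shared by every replicate, between 18 and 21 genes held a merged peak. With a q-value of 0.01 or 0.001, 17 or 15 genes held a peak in every replicate, and without 1 replicate in turn 18 to 20 did.

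The share with HA among genes with H3K4me3 lay between 72.0% and 77.8%, the count of H3K4me3 between 19 and 27 genes, and the coding neighbours between 6 and 8. The median fold enrichment lay between 6.65 and 7.39. The median summit, 156 bp from the 5′ end, moved to 140 bp for summits within 500 bp, 166 bp for the nearest, 178 bp for the summit with the most fragments and 96.2 bp from the commonest start, and without 1 replicate in turn it lay between 154 and 184 bp. Measured from the commonest start it lay between 88.0 and 111 bp. The commonest start and the summit with the most fragments were chosen after seeing the data. No paired analysis was possible because only 1 group has more than 1 replicate.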
